A study of Bos taurus with 9 samples.

Results

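A group of 10 genes with low transcript levels after 5 h in added salt was followed on 9 Affymetrix arrays of bovine cells from the nucleus pulposus, the soft centre of a spinal disc. The genes are TCIM, TRIB1, NAT1, ANKRD49, KCTD11, BHLHE40, CNOT6, DICER1, LFNG and LIPT1. They were listed because their 5 h level was far below control on these same arrays, so every value of 5 h against control, and of 24 h against 5 h, is given as a description with no test. All probe sets annotated to 1 of these symbols and to no other were taken, which gave 13 probe sets for the 10 genes, out of 13292 single-symbol probe sets for 9155 genes. Of the genes 7 have 1 probe set, and TRIB1, BHLHE40 and LFNG have 2; all 13 passed the filter on low values. The brightest probe set of a gene stands for it unless another is named.

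The cells came from caudal discs of young calves and were grown in DMEM with fetal bovine serum, per the labels. The 9 arrays comprise 3 of cells given salt to 500 mOsm/kg for 5 h, 3 of cells held at that osmolality for 24 h, and 3 of untreated control cells, with biological replicates numbered 1 to 3 in each group. The labels give neither strain, sex nor a time for the control. They do not tie the replicates to separate animals, so a p-value here sets a difference against the spread of these cultures only, which may be technical. Both times share the 3 control arrays, so the effects of salt and of longer culture cannot be told apart.

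Values are probe set intensities on a linear scale, and array medians lay between 67.1 and 84.5. Changes are differences in log2(intensity + 16), which understates the change of a dim probe set; a probe set with a mean of about 17.1 sat at the filter, and 18012 probe sets were tested. Among same-numbered arrays of different groups the deviations from group means correlated at 0.56 to 0.90 over all tested probe sets, and the 3 arrays numbered 3 stood apart from the other 6. Differences are therefore also given by replicate pair, which shows each with and without the arrays numbered 3. Of 13 nucleus pulposus markers 8 had a probe set and 5 passed the filter. ACAN averaged 1053 at 5 h, 2995 at 24 h and 1261 in control, and COL2A1 121.3, 130.3 and 182.2. CDH2 averaged 2006, 1387 and 1638, and BASP1 5419, 5314 and 5449. KRT18 (15.9, 16.7 and 21.4) and KRT8 (13.0, 20.0 and 18.5) averaged near the filter level. KRT19 (8.53, 7.53 and 5.2) and CA3 (3.63, 7.17 and 6.57) averaged below it. Summed nucleus pulposus markers were 8393 to 8978 at 5 h, 8337 to 11050 at 24 h and 8090 to 9088 in control. Summed fibroblast markers were 14080 to 17910 at 5 h, 18110 to 22640 at 24 h and 15110 to 20470 in control. Within that list COL12A1 averaged 1343, 3603 and 1097 and LUM 3551, 5743 and 2791, whereas COL1A1 averaged 2451, 2290 and 2952 and COL1A2 8209, 8530 and 9927; TNMD was below the filter level. Summed endothelial markers stayed between 120.3 and 194.5 on all arrays. Summed leukocyte markers were 199.7 to 221.2 at 5 h, 390.3 to 435.0 at 24 h and 197.2 to 214.9 in control, with CD14 at 72.8, 285.6 and 95.6 on average and CD68 at 42.1, 44.6 and 42.6. Summed skeletal muscle markers were 1150 to 3391 at 5 h, 2136 to 3500 at 24 h and 906.7 to 1071 in control, mostly CKM. In contrast, ACTA1 averaged 343.5 at 5 h, 198.4 at 24 h and 306.7 in control, and MYH1 8.4, 8.53 and 7.9. The log2 ratio of the actin 3' to 5' control probe sets, a sign of RNA quality, averaged 2.68 ± 0.28 at 5 h, 2.99 ± 0.28 at 24 h and 2.69 ± 0.18 in control (SD, n = 3). The part of these shifts in the results below was not tested.

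Most of the listed genes encode proteins that set the activity or lifetime of other gene products. TRIB1 encodes a pseudokinase that brings the ubiquitin ligase COP1 to transcription factors of the C/EBP family, KCTD11 an adaptor of CUL3 ubiquitin ligases known in mouse and human as an antagonist of Hedgehog signalling, and TCIM a small protein that in human cells favours Wnt/beta-catenin signalling by binding Chibby. BHLHE40 is a basic helix-loop-helix repressor that acts in the circadian clock. CNOT6 is a catalytic deadenylase of the CCR4-NOT complex, which shortens poly(A) tails, and DICER1 cuts precursor microRNAs to their mature length. LFNG is a Golgi glycosyltransferase that extends O-fucose on Notch receptors and thereby tunes their response to ligands. NAT1 is an arylamine N-acetyltransferase and LIPT1 a mitochondrial lipoyltransferase, and ANKRD49 carries ankyrin repeats. In the disc, the osmolality around nucleus pulposus cells changes with load on the spine.

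At 5 h all 10 genes lay below control in every replicate pair, as did 23.1% of tested probe sets. Their group changes ran from -2.55 for TCIM to -1.22 for LIPT1 on the log2 scale, with a median of -1.69, against -0.030 over all tested probe sets. This order holds for a pseudocount of 16: with a pseudocount of 1, NAT1 (-2.99) and ANKRD49 (-2.95) lay below TCIM (-2.73), and LIPT1 (-1.66) below DICER1 (-1.35) and LFNG (-1.34). All 3 arrays at 5 h were below all 3 of control for each of the 10, which the choice of the genes fixes; 6.6% of all tested probe sets had that separation and 0.25% were called lower at 5 h. Here and below a call means a Benjamini-Hochberg adjusted p under 0.05 in limma's moderated test over all tested probe sets. At 24 h, 9 of the 10 genes had all 3 arrays above all 3 at 5 h, against 18.1% of tested probe sets, and TRIB1 did not. Against control the median change at 24 h was -0.37, with 9 genes below and KCTD11 above it. In these bulk samples fewer cells expressing a gene and less RNA per cell cannot be told apart.

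**Figure D1:**
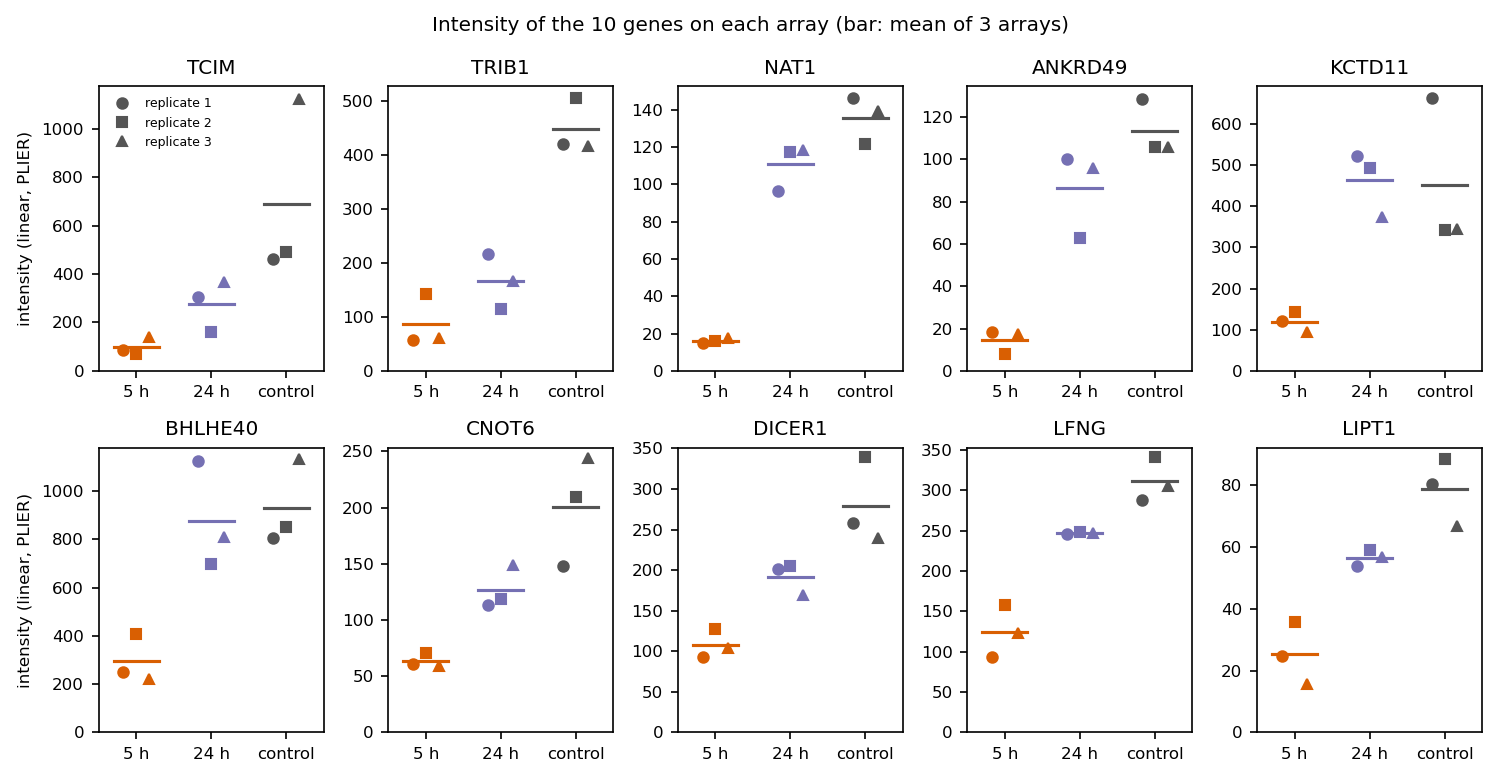
Intensity (linear scale) of the brightest probe set of each of the 10 genes on each array, in cells held in salt for 5 h or 24 h and in control cells; symbols mark replicate numbers and bars the mean of 3 arrays. The 5 h arrays lie below the control arrays for every gene. At 24 h the means of TRIB1 and TCIM are 37.1% and 40.1% of control, while the arrays of KCTD11 and BHLHE40 overlap control.

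TRIB1, the scaffold for C/EBP degradation, had intensities of 57.5, 143.0 and 60.9 at 5 h, 216.5, 115.5 and 166.7 at 24 h, and 421.2, 505.7 and 416.8 in control (replicates 1, 2 and 3). The groups at either time stood clear of control, whereas 24 h and 5 h overlapped, since replicate 2 was lower at 24 h than at 5 h. Its mean was 19.5% of control at 5 h and 37.1% at 24 h. The log2 change at 24 h against control was -1.38 ± 0.33 (SE, 3 arrays a group; limma adjusted p = 0.036, range over alternatives 0.0050 to 0.129), and 3 of 3 pairs were lower. This comparison shares its control arrays with the one the genes were chosen on. In the fit without a block on the replicate number, TRIB1 was the 1 gene of the 10 called at 24 h. Its call ended without any 1 of the 3 control arrays, of the 3 arrays at 24 h or of 5 h replicate 1, with the adjusted p at most 0.129 (without control replicate 2) and the change between -1.58 and -1.17. The dimmer TRIB1 probe set read 18.5, 39.9 and 11.1 at 5 h, 45.5, 32.0 and 7.4 at 24 h, and 81.5, 116.1 and 19.2 in control, and its 24 h change of -0.90 ± 0.53 was not called (adjusted p = 0.37; 0.014 with the replicate number as a block).

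TCIM, the Chibby-binding protein, read 85.6, 70.3 and 140.3 at 5 h, 305.0, 159.5 and 367.2 at 24 h, and 460.6, 489.4 and 1124.0 in control. The 3 groups did not overlap, and replicate 3 was the highest array within each group. The mean stood at 14.3% of control at 5 h and 40.1% at 24 h. At 24 h the change was -1.22 ± 0.42 and was not called (adjusted p = 0.11, 95% interval -2.17 to -0.28), while with the replicate block the adjusted p was 0.00098 and all 3 pairs were lower.

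KCTD11, the CUL3 adaptor, read 120.7, 143.4 and 94.8 at 5 h, 522.7, 493.2 and 374.7 at 24 h, and 663.1, 343.1 and 344.2 in control. The 24 h and control arrays overlapped, with control replicate 1 the highest of all 9. At 5 h the mean was 26.6% of control, and at 24 h it was 103.0%. The 24 h change was 0.096 ± 0.28, with an interval of -0.54 to 0.73 (adjusted p = 0.92). Its sign turned without control replicate 2 (-0.058) or control replicate 3 (-0.056).

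BHLHE40, the clock repressor, read 250.0, 409.4 and 222.9 at 5 h, 1125.8, 699.4 and 810.5 at 24 h, and 804.0, 853.4 and 1135.6 in control. The 24 h and control arrays overlapped over most of their ranges. The mean was 31.6% of control at 5 h and 94.4% at 24 h, and the 24 h change was -0.094 ± 0.27 (interval -0.70 to 0.51, adjusted p = 0.91). Its sign turned without control replicate 3 (0.055) or 24 h replicate 2 (0.053). The dimmer BHLHE40 probe set showed the same order in each pair at 5 h, at 32.5, 66.9 and 1.8 against 161.0, 160.2 and 16.6 in control, and read 208.5, 110.3 and 7.3 at 24 h. On the arrays numbered 3 this probe set was near or below the filter level in all 3 groups, unlike the brighter one.

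CNOT6, the deadenylase, read 60.8, 71.0 and 59.5 at 5 h, 113.5, 118.3 and 149.1 at 24 h, and 148.3, 209.6 and 244.2 in control. The 24 h array of replicate 3 slightly exceeded control replicate 1, while each pair was lower at 24 h than its control. Its mean was 31.8% of control at 5 h and 63.3% at 24 h. The 24 h change was -0.58 ± 0.21 and was not called (adjusted p = 0.13, 0.014 with the replicate block).

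DICER1, the microRNA-cutting enzyme, read 93.3, 127.0 and 103.7 at 5 h, 201.3, 205.2 and 169.7 at 24 h, and 257.9, 338.8 and 239.1 in control. The 3 groups did not overlap. Its mean stood at 38.8% of control at 5 h and 68.9% at 24 h, and the 24 h change of -0.49 ± 0.19 was not called (adjusted p = 0.16, 0.012 with the replicate block).

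LFNG, the Notch glycosyltransferase, read 92.8, 157.2 and 123.4 at 5 h, 245.1, 247.6 and 247.1 at 24 h, and 287.6, 340.4 and 305.0 in control. The groups did not overlap, and the 24 h arrays lay close together. The mean was 40.0% of control at 5 h and 79.3% at 24 h; the 24 h change was -0.31 ± 0.19 (interval -0.75 to 0.12, adjusted p = 0.39). The other LFNG probe set read 29.2, 23.8 and 7.0 at 5 h, 38.8, 31.1 and 9.7 at 24 h, and 33.1, 21.1 and 9.1 in control, so it lay near the filter level and showed no dip.

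NAT1, the arylamine acetyltransferase, read 15.0, 15.9 and 17.8 at 5 h, 96.5, 117.4 and 118.4 at 24 h, and 146.1, 121.6 and 139.1 in control. The 5 h arrays were at about the filter level and agreed closely, and every 24 h array was below every control array by a narrow margin. The mean was 11.97% of control at 5 h and 81.7% at 24 h, with a 24 h change of -0.26 ± 0.15 (interval -0.61 to 0.090, adjusted p = 0.38).

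ANKRD49 read 18.3, 8.1 and 17.4 at 5 h, 99.9, 62.9 and 95.8 at 24 h, and 128.6, 105.8 and 106.0 in control. The groups did not overlap, and replicate 2 was the lowest array of each. The mean was 12.9% of control at 5 h and 76.0% at 24 h, with a 24 h change of -0.36 ± 0.22 (interval -0.84 to 0.13, adjusted p = 0.38).

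LIPT1, which attaches lipoic acid to mitochondrial enzyme complexes, read 24.6, 35.6 and 15.8 at 5 h, 53.9, 59.0 and 56.8 at 24 h, and 80.5, 88.6 and 66.9 in control. The groups did not overlap. The mean was 32.2% of control at 5 h and 71.9% at 24 h, with a 24 h change of -0.38 ± 0.20 (interval -0.83 to 0.071, adjusted p = 0.30). For NAT1, ANKRD49 and LIPT1, whose 5 h arrays were dim, the size of the 5 h log2 change rests on the pseudocount: it was -2.99, -2.95 and -1.66 with a pseudocount of 1, and -1.31, -1.18 and -0.68 with 64.

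The 10 falls differed between replicate pairs. The median fall over the genes was -1.85 in pair 1, -1.34 in pair 2 and -1.83 in pair 3, and pair 2 had the shallowest fall of its 3 for 6 of the genes. KCTD11 changed by -2.31, -1.17 and -1.70 in pairs 1, 2 and 3. BHLHE40 changed by -1.62, -1.03 and -2.27. NAT1 was more even than KCTD11 and BHLHE40, at -2.39, -2.11 and -2.20. Each gene's profile over the 9 arrays, after standardizing, correlated with the mean of the other 9 genes at r = 0.85 (TCIM) to 0.97 (LFNG), a description of genes chosen for a shared pattern on the same arrays.

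**Figure D2:**
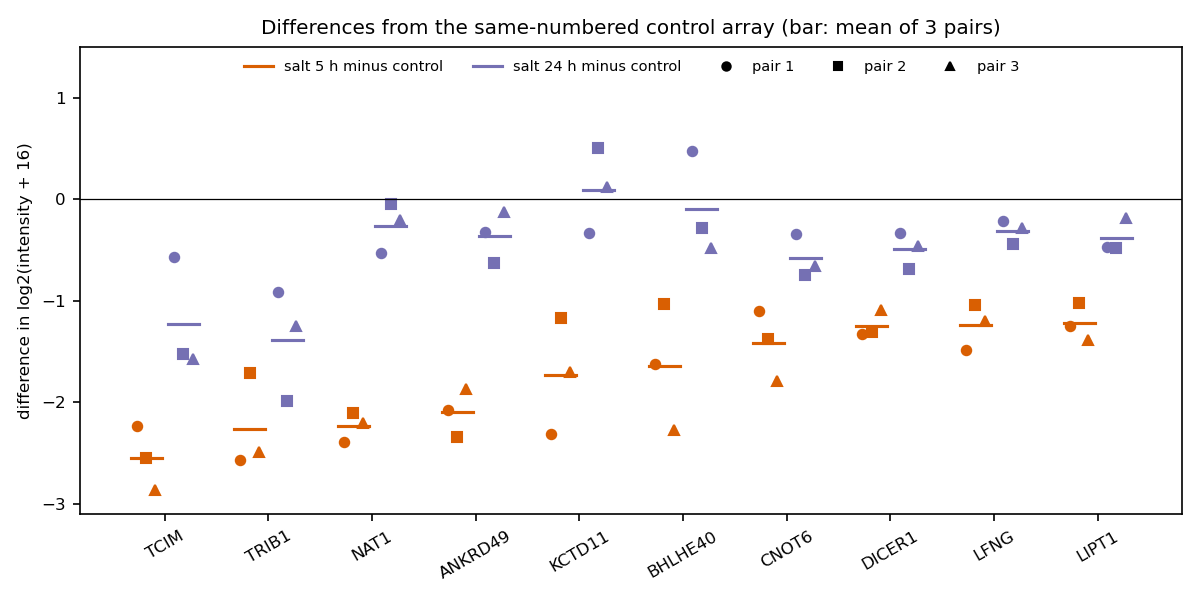
Difference in log2(intensity + 16) between each salt array and the control array of the same replicate number, for 5 h and 24 h, with bars at the mean of 3 pairs. All 30 differences at 5 h are below 0, and at 24 h 27 of 30 are below 0, the others being KCTD11 in pairs 2 and 3 and BHLHE40 in pair 1.

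Recovery was expressed as the rise between 5 h and 24 h as a share of the 5 h fall, both on the log2 scale, so that 0% means the 5 h level and 100% the control level. From group means it was 105.5% for KCTD11, 94.3% for BHLHE40, 88.4% for NAT1, 82.9% for ANKRD49 and 74.8% for LFNG. It was 69.0% for LIPT1, 60.5% for DICER1, 58.9% for CNOT6, 52.0% for TCIM and 38.9% for TRIB1. Ranges over the pairs overlapped between each gene and the next in this order, so neighbours could not be set apart. Pairs of NAT1 ranged from 77.9% to 97.9% and those of TRIB1 from -16.0% to 64.6%, which do not overlap. KCTD11 ranged from 85.6% to 143.0% and BHLHE40 from 72.7% to 129.4%.

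By pair, the median recovery over the 10 genes was 76.4% in pair 1, 55.6% in pair 2 and 77.5% in pair 3. The rise itself had a median of 1.66, 0.69 and 1.27 on the log2 scale in those pairs. Recovery was lowest in pair 2 for BHLHE40, CNOT6, DICER1, LFNG, LIPT1, ANKRD49, TCIM and TRIB1, whereas NAT1 and KCTD11 had their highest there. Of the 30 pairwise differences, 29 were higher at 24 h than at 5 h, the exception being TRIB1 in pair 2 (-0.27). In all, 36.4% of tested probe sets were higher at 24 h than at 5 h in 3 of 3 pairs.

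**Figure D3:**
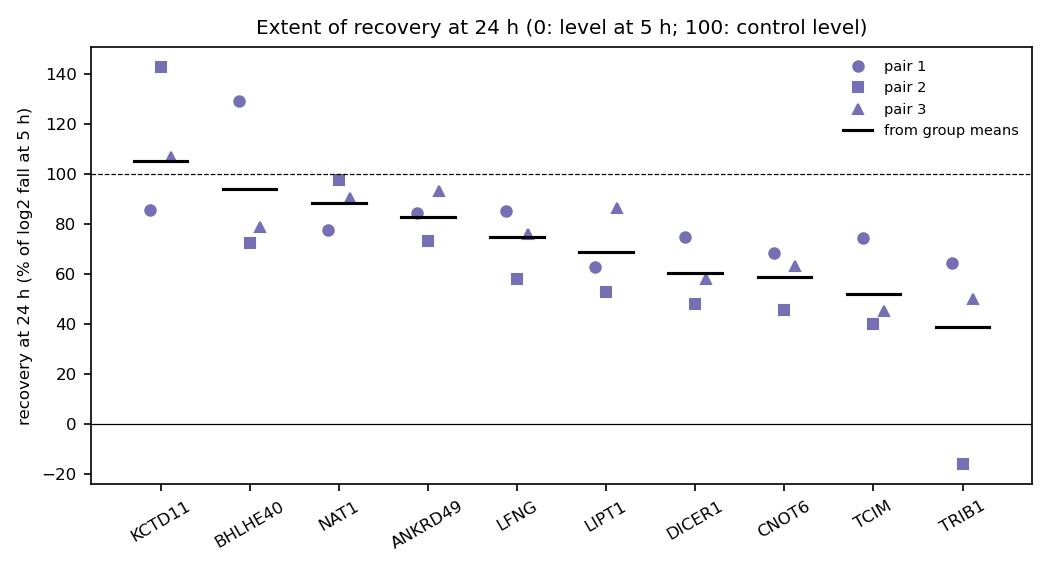
Recovery at 24 h as a percentage of the log2 fall at 5 h, by replicate pair (symbols) and from group means (bars), with genes ordered by the value from group means. Means run from 105.5% for KCTD11 to 38.9% for TRIB1, and the pair 2 value of TRIB1 is below 0.

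What remained at 24 h was tested against control. One of the 10 genes was called lower (TRIB1) and 0 higher, against 4.32% and 4.28% of all tested probe sets; at an unadjusted p under 0.05 in the same limma fit, 4 were lower and 0 higher. With the replicate number as a block, TRIB1, TCIM, CNOT6 and DICER1 were called lower and 0 genes higher, against 17.5% and 18.3% of all tested probe sets. All 3 arrays at 24 h lay below all 3 of control for 7 genes, which 13.5% of tested probe sets showed, and 8 were lower in 3 of 3 pairs, which 29.5% had. High control arrays were part of what chose the genes, and these comparisons reuse them, so the counts are not independent of the choice. For the 6 genes not called with the block, the blocked intervals ran from -0.69 to -0.061 for LIPT1, -0.65 to -0.060 for ANKRD49, -0.62 to -0.0085 for LFNG, -0.55 to 0.027 for NAT1, -0.64 to 0.46 for BHLHE40 and -0.32 to 0.51 for KCTD11.

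**Figure D4:**
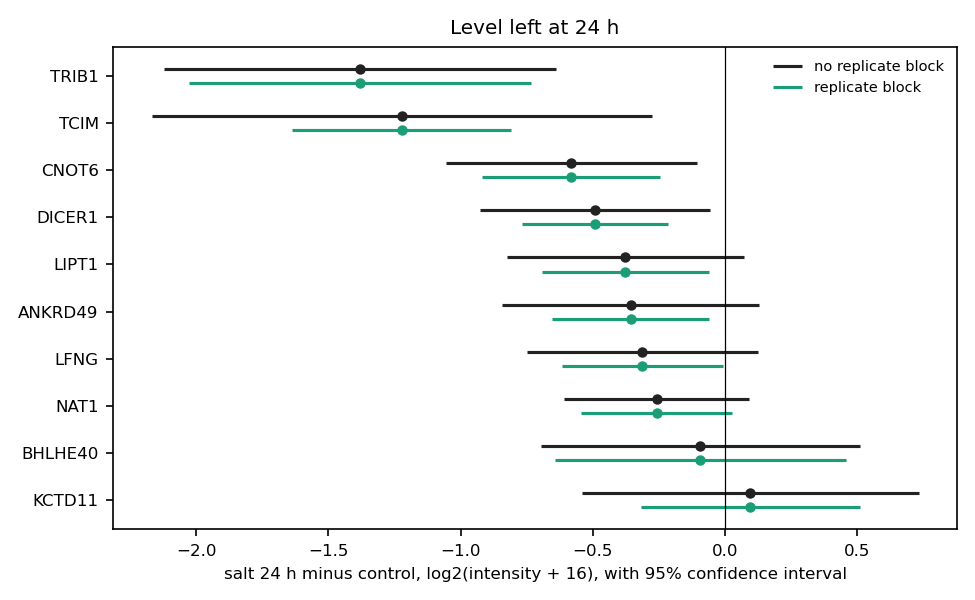
Difference between 24 h and control in log2(intensity + 16) for each gene with its 95% confidence interval from limma, without and with the replicate number as a block. TRIB1 at -1.38 and TCIM at -1.22 lie farthest below 0, and KCTD11 at 0.096 and BHLHE40 at -0.094 lie nearest to it.

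The 10 genes are not all of the deepest falls at 5 h. Among single-symbol probe sets called lower with no overlap, those of the transcription factor genes MYC (-2.16) and JUN (-1.84), and of CH25H (-2.11), SLC20A1 (-1.74), MAP3K14 (-1.62) and FICD (-1.33) lay deeper than LIPT1 (-1.22), the shallowest of the 10 with a pseudocount of 16. For CH25H and JUN this was not the brightest probe set, which stood at -0.18 and -1.32, and a second FICD probe set stood at -0.051. Just beyond LIPT1 came KTI12 (-1.12), PLPP6 (-1.09) and LOC100848895 (-1.09). Measured the same way, recovery was 27.0% for MYC, 25.6% for JUN and -15.8% for CH25H, below each of the 10. It was 49.5% for SLC20A1, 56.1% for FICD and 64.8% for MAP3K14, within the range of the 10. It was 20.7% for KTI12, while PLPP6 and LOC100848895 reached 149.1% and 135.6%.

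The genes with the most similar profile were found by correlation with the mean standardized profile of the 10 over the 9 arrays, among 7770 other named genes. They were MAP3K14, the kinase of non-canonical NF-kB signalling (r = 0.99), the ubiquitin ligase gene TRIM13 (0.98), the aminopeptidase gene XPNPEP1 (0.97), TAF7 of the general transcription factor TFIID (0.96) and METTL18 (0.96). MAP3K14 read 6.2, 9.3 and 8.2 at 5 h, 39.5, 25.8 and 36.1 at 24 h, and 54.0, 59.4 and 58.9 in control. TRIM13 read 207.3, 242.2 and 203.9 at 5 h, 370.5, 400.1 and 351.1 at 24 h, and 435.2, 446.7 and 412.4 in control. These 5 changed by -0.66 (TAF7) to -1.62 (MAP3K14) at 5 h and by -0.57 (MAP3K14) to -0.093 (METTL18) at 24 h, each on the log2 scale and without a test, since likeness chose them.

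Genes that work with the 10, or belong to the same family, were taken from 10 lists. Of 122 such genes tested, 1 was called higher and 1 lower at 5 h, against 0.189% and 0.253% of all named genes, with a median change of -0.0046. At 24 h 8 were called higher (among them HES6, whose control arrays lay below the filter level) and 7 lower, against 5.13% and 5.65%. With the replicate block these counts were 10 and 5 at 5 h (2.27% and 3.01% of named genes) and 24 and 17 at 24 h (19.9% and 20.1%). The 5 h calls were NFIL3 and NOTCH4, and 0 were called when the fit held the 6 arrays of that comparison alone. Leaving out control replicate 2 or 3, 24 h replicate 1 or 2, or 5 h replicate 1 or 3 also gave 0, and leaving out control replicate 1 or 24 h replicate 3 gave 1. At 24 h the 15 calls fell to 5 to 9 without control replicate 2 or 3 or any 1 of the 24 h arrays.

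**Figure D5:**
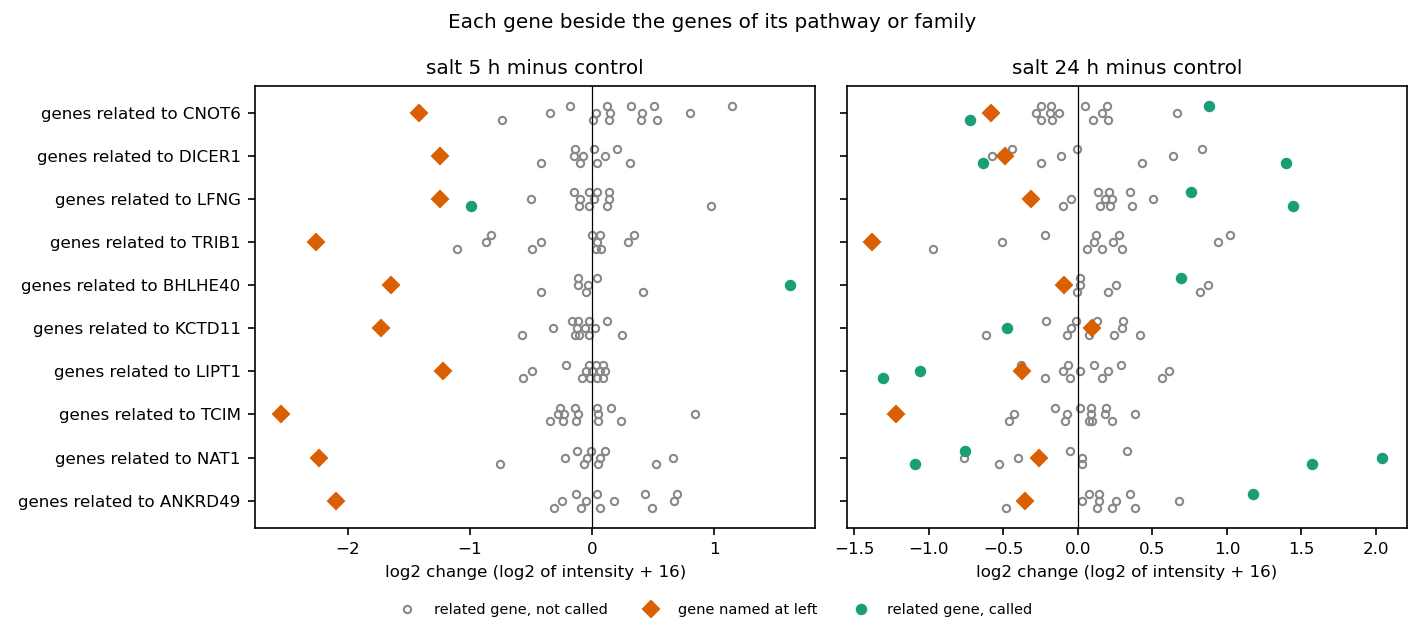
Log2 change of each of the 10 genes (diamonds) and of the tested genes of its pathway or family (circles, filled where called without the replicate block) at 5 h and at 24 h against control. The diamonds were chosen for their position in the left panel, where the 2 filled circles are NFIL3 at 1.62 and NOTCH4 at -0.99.

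In the CCR4-NOT list, 0 of 15 genes were called at 5 h (4 higher and 0 lower at an unadjusted limma p under 0.05; 3 higher with the block). The other deadenylase subunits lay near 0 or above, with CNOT6L, the closest relative of CNOT6, at 0.40, CNOT7 at 0.14 and the scaffold CNOT1 at 0.14. TOB1 and TOB2, which recruit the complex to transcripts, stood at 1.14 (adjusted p = 0.32, 0.0014 with the block) and 0.80 (adjusted p = 0.24, 0.0069 with the block). Of the 15 genes 3 lay below 0 at 5 h: ZFP36L2 at -0.74 (adjusted p = 0.905, 0.32 with the block), PAN2 at -0.34 and BTG3 at -0.18. At 24 h the subunit CNOT9 fell by 0.72 ± 0.18 (adjusted p = 0.038) and the antiproliferative partner BTG1 rose by 0.88 ± 0.15 (adjusted p = 0.013).

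In the microRNA list 0 of 10 genes were called at 5 h, also at an unadjusted limma p under 0.05 and with the block, with changes from -0.42 (DGCR8, the Drosha partner) to 0.31 (PRKRA, a Dicer partner). At 24 h PRKRA rose by 1.399 ± 0.19 (adjusted p = 0.0068), and RAN, the GTPase of nuclear export, fell by 0.63 ± 0.13 (adjusted p = 0.024). PRKRA read 634.2, 646.1 and 694.3 at 24 h against 210.1, 222.8 and 292.7 in control, and the groups did not overlap. AGO2, the slicing Argonaute, stood at -0.58 at 24 h (adjusted p = 0.072, 0.0055 with the block). In the other direction, TNRC6B stood at 0.83 (adjusted p = 0.051, 0.0016 with the block) and DDX17 at 0.64 (adjusted p = 0.088, 0.00043 with the block). With the block 4 genes of this list were called higher and 2 lower at 24 h.

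In the Notch list NOTCH4, 1 of the receptors that LFNG can modify, fell by 0.99 ± 0.16 at 5 h (adjusted p = 0.041) and rose by 0.76 ± 0.16 at 24 h (adjusted p = 0.025). It read 22.4, 32.1 and 22.4 at 5 h, 121.6, 133.0 and 116.2 at 24 h, and 74.6, 61.2 and 64 in control, with no overlap between the groups. Of 13 genes tested, 0 others were called lower at either time, and the genes called higher at 24 h include HES6. HES6 read 41.2, 42.0 and 74.4 at 24 h against 5.1, 6.6 and 15.4 in control, where all 3 arrays were below the filter level. It passed that filter through the salt arrays, so no size or p-value is given for its change. Its call is not read as a result. At an unadjusted limma p under 0.05 the list, HES6 included, had 1 gene higher and 1 lower at 5 h. At 24 h it had 3 higher and 0 lower.

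In the Tribbles, COP1 and C/EBP list 0 of 12 genes were called at either time; at an unadjusted limma p under 0.05, 0 were higher and 2 lower at 5 h and 2 were higher and 2 lower at 24 h. TRIB2 stood at -0.86 at 5 h (adjusted p = 0.76, 0.0069 with the block) and 0.94 at 24 h (adjusted p = 0.21, 0.00088 with the block). CEBPD stood at -1.11 at 5 h (adjusted p = 0.20, 0.042 with the block) and 1.02 at 24 h (adjusted p = 0.059, 0.014 with the block). TRIB3 was at -0.83 and -0.97 at the 2 times, and COP1 at 0.00098 and 0.23. With the block 1 gene of this list was called higher and 2 lower at 5 h, and 2 higher and 2 lower at 24 h.

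In the clock list, of 8 genes tested, the repressor NFIL3 rose by 1.62 ± 0.21 at 5 h (adjusted p = 0.022) and 0 were lower, also at an unadjusted limma p under 0.05. NFIL3 read 2969.0, 2336.9 and 3263.2 at 5 h, 1050.5, 1084.0 and 1016.6 at 24 h, and 1255.8, 703.8 and 853.6 in control, so its 5 h arrays were high where those of BHLHE40 were low. RORA, a nuclear receptor that drives clock genes, rose by 0.69 ± 0.17 at 24 h (adjusted p = 0.043), and PER2 stood at 0.82 (adjusted p = 0.12, 0.0019 with the block).

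In the KCTD and Hedgehog list 0 of 13 genes were called at 5 h (0 higher and 1 lower at an unadjusted limma p under 0.05, and KCTD18 at -0.57 with the block). The corepressor HDAC1 fell by 0.48 ± 0.098 at 24 h (adjusted p = 0.023), while the Hedgehog receptor PTCH1 stood at -0.12 at 5 h and -0.075 at 24 h. In the Wnt list 0 of 14 genes were called at either time, also at an unadjusted limma p under 0.05, and with the block 1 was called higher at 5 h and 1 higher and 1 lower at 24 h; beta-catenin (CTNNB1) stood at 0.044 and -0.15, and CBY1, which encodes Chibby, at 0.045 and 0.094. The 5 h call with the block was the kinase gene GSK3B, at 0.84.

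In the lipoylation list 0 of 14 genes were called at 5 h (0 higher and 1 lower at an unadjusted limma p under 0.05 and, with the block, GLDC at -0.56). At 24 h GCSH, the lipoyl-carrying protein of the glycine cleavage system, fell by 1.31 ± 0.16 (adjusted p = 0.0048), and GLDC, its decarboxylase, fell by 1.06 ± 0.16 (adjusted p = 0.0084). GCSH read 312.4, 353.3 and 310.9 at 24 h against 682.0, 899.4 and 929.9 in control. The lipoyl synthase LIAS stood at 0.56 at 24 h (adjusted p = 0.11, 0.011 with the block).

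Of 11 acetyltransferase genes listed beside NAT1, 0 were called at 5 h (2 higher and 1 lower at an unadjusted limma p under 0.05; 1 higher with the block). At 24 h the spermidine/spermine acetyltransferase SAT1 rose by 2.04 ± 0.21 (adjusted p = 0.0030) and SAT2 by 1.57 ± 0.28 (adjusted p = 0.014). NAA15, of the N-terminal acetyltransferase complex, fell by 1.10 ± 0.25 (adjusted p = 0.031), and GNPNAT1, of hexosamine synthesis, fell by 0.76 ± 0.18 (adjusted p = 0.036). SAT1 read 6112.5, 6554.7 and 7621.6 at 24 h against 2155.4, 1291.0 and 1550.1 in control. Of 12 other ankyrin repeat genes 0 were called at 5 h (3 higher and 0 lower at an unadjusted limma p under 0.05; 2 higher with the block), and ANKRD29 rose by 1.17 ± 0.29 at 24 h (adjusted p = 0.043).

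The protein-coding genes next to the 10 on the chromosome, in the order given by the RefSeq annotation of ARS-UCD2.0, number 20, of which 7 were tested. At 5 h 0 of the 7 were called by limma, at an unadjusted p under 0.05 or with the replicate block. Of all named genes 0.189% were called higher and 0.253% lower at 5 h, or 2.27% and 3.01% with the block. With shares this low, 0 of 7 does not set the neighbours apart. Their changes ran from -0.41 (ACAP1, beside KCTD11) to 0.34 (MRE11, beside ANKRD49). MITD1, the neighbour of LIPT1, stood at -0.26 ± 0.28. At 24 h NSMCE2, beside TRIB1, fell by 0.75 ± 0.18 (adjusted p = 0.036) and ITPR1, beside BHLHE40, rose by 0.72 ± 0.14 (adjusted p = 0.020). Of all named genes 5.65% were called lower and 5.13% higher at 24 h. Beyond this gene order genome positions are not used, since the build behind the array's probe sets is not given in the sources used here.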

How the data were processed

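Intensities of 24016 probe sets, besides 112 control probe sets left out here, were deposited by the authors on a linear scale. The submitters' processing notes name PLIER and Affymetrix Expression Console; their versions, settings and any scaling between arrays were not given in the sources used here. Gene symbols are those of the platform's annotation table. Intensities were taken as log2(value + 16), dim probe sets (mean under the 25th percentile) were dropped, and limma 3.58.1 (R 4.3.3; lmFit and eBayes, trend on) modelled the 3 groups over all 9 arrays, with Benjamini-Hochberg adjustment within each comparison. The step was tested on simulated data with independent noise on each array, so correlation between same-numbered arrays was not part of that check. Array number limits the precision; no count depth exists for arrays.

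The genes and lists were chosen with earlier results of these data known. The 10 genes came from the deepest called falls at 5 h. Named beside them are up to 2 called genes per direction and comparison from each list, the 5 most similar profiles, the 3 falls next below, and genes chosen after their values were seen (uncalled list members, deeper falls, neighbours, markers). Recovery was not computed where a pair's fall was under 0.25. Same-numbered arrays correlated in their deviations in all 9 pairings of groups (0.56 to 0.90, against -0.78 to 0.54 for other numbers), so a block on the replicate number was fitted as an alternative. Other alternatives were the pseudocount, filter, normalization, trend, arrays fitted and leaving out each array. Promoter motifs were not analysed here.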

Additional observations from a re-analysis of the deposited data

Results flagged for a closer look

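Of 16 genes called in the lists of related genes, 13 also had a called difference between 24 h and 5 h and are named here. All 16 were first chosen for a call at either time on the same arrays. The differences are therefore given as values, and the call that picked the 13 is no support for them. BTG1 (0.38), GLDC (-0.49) and HES6 were left out because their difference was not called. The effect at 24 h minus that at 5 h was 1.75 on the log2 scale for NOTCH4, 1.52 for SAT2, 1.51 for SAT1, 1.49 for ANKRD29, 1.09 for PRKRA and 0.81 for RORA. It was -1.42 for NFIL3, -1.31 for GCSH, -1.13 for CNOT9, -1.05 for NAA15, -0.69 for GNPNAT1, -0.67 for RAN and -0.36 for HDAC1. NOTCH4 was lower than control in every pair at 5 h and higher in every pair at 24 h, and CNOT9 the reverse. Just outside the 10 genes, PLPP6 and LOC100848895 were below control in every pair at 5 h. They were above control in every pair at 24 h (24 h change 0.53 and 0.39). This difference was not tested, since the 5 h fall chose them.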

How the results depend on the processing

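For the 10 genes, the signs of the 5 h, 24 h and 24 h minus 5 h changes were kept under all alternatives run, except that the 24 h change of KCTD11 and of BHLHE40 turned in 2 refits each, all leaving out 1 array. Centring each array on its median moved the median of all probe sets by -0.15 for 24 h minus 5 h, and by under 0.1 in the other comparisons. Genes of the 10 called at 24 h numbered 1, 4 with the replicate block, and 0 to 1 with 1 array left out. The replicate block raised the probe sets called at 5 h, 87 in all, to 1056 and those at 24 h, 1550 in all, to 6452, and the related genes called, 2 and 15, to 15 and 41; it moved no other call of the 10 genes' brightest probe sets than those of TCIM, CNOT6 and DICER1. With the 6 arrays compared the counts were 13 and 801 probe sets and 0 and 7 related genes. Centring on the median gave 57 probe sets at 5 h. Centring, quantile normalization, a pseudocount of 64, no filter and a filter at the 50th percentile each left 1 related gene called at 5 h. Leaving out 1 array gave 15 to 127 probe sets at 5 h and 296 to 1540 at 24 h, and 0 to 2 and 5 to 16 related genes. At 5 h the count was 22, 16 and 18 without control replicate 1, 2 and 3, 22 and 27 without 24 h replicate 1 and 2, and 15 and 22 without 5 h replicate 1 and 3. At 24 h it was 310 and 465 without control replicate 2 and 3, 296, 759 and 894 without 24 h replicate 1, 2 and 3, and 912 without 5 h replicate 1. The cause of these changes was not tested.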
